A study of Mus musculus with 10 samples.

Results

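Hyaluronan, a long unbranched polysaccharide, was followed here through the genes that make it, bind it and sense it in the left ventricle of mice after transverse aortic banding (TAB). The 9 genes were the 3 hyaluronan synthases (Has1, Has2 and Has3), the large hyaluronan-binding proteoglycans versican (Vcan), aggrecan (Acan) and neurocan (Ncan), the link protein Hapln1, the hyaluronan-binding protein Tnfaip6 and the receptor Cd44. They were chosen by gene symbol and had 10 probes among the 26423 probes of the array, which carry 19942 distinct symbols. Vcan had 2 probes and each other gene had 1.

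All animals were male C57BL/6J mice of 8 weeks, weighing 20 to 25 g and anaesthetized with isoflurane. They underwent either TAB, in which a ligature narrows the aortic arch and overloads the left ventricle with pressure, or a sham operation. The labels name no allele and no drug besides. Left-ventricular RNA was taken 3, 5, 7, 14 or 28 days after the operation, with 1 TAB and 1 sham sample per day, thus 5 TAB and 5 sham samples on 10 arrays. How many mice a sample held is not given in the sources used here. Nothing replicates a single day, the p-values below take the 5 days as replicates, and they measure only the spread between these samples. The TAB sample of day 14 carries a second label with another day, and its title was followed.

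Hyaluronan synthases sit in the plasma membrane, join UDP-glucuronic acid and UDP-N-acetylglucosamine, and extrude the growing chain from the cell. Outside the cell, the chain carries the proteoglycans of the lectican family, which are held on it by link proteins, and it is bound by CD44 on fibroblasts, leukocytes and other cells. A matrix rich in hyaluronan and versican is a known feature of injured and inflamed tissue, in which Tnfaip6 (also called TSG-6) helps to crosslink it. Acan is known from cartilage and Ncan from the nervous system.

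The arrays limited what could be seen of these genes. Across the 10 arrays the median raw intensity was 34 to 57, and 40.2% to 47.3% of the spots carried a negative flag, read here as a spot that the image software did not find. The 1st percentile of the raw intensity of the found spots was 25 to 27. The deposited detection p-value was under 0.05 for 18.8% to 38.6% of the probes of an array, and the sham arrays of days 7 and 28 stood apart at 38.6% and 38%. For the 9 genes it was under 0.05 once, for Vcan in the TAB sample of day 5. Probes with a scaled intensity under 1 in any sample were removed before normalization, which left 19976 probes. Of the 10 probes of the 9 genes, 5 stayed (both of Vcan, and those of Cd44, Tnfaip6 and Has1), and those of Has2, Has3, Acan, Ncan and Hapln1 were removed. Over the kept probes the median of the mean log2 ratio of TAB to sham was −0.05.

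Vcan (by the brighter of its 2 probes), Cd44, Tnfaip6 and Has1 were each higher in all 5 TAB samples than in any of the 5 sham samples. The same held for 8.78% of all kept probes. The spots of these 4 genes were found in every TAB sample but, for Cd44, Tnfaip6 and Has1, not in every sham sample, so that being measurable in TAB itself favoured this direction. Among the 13188 kept probes found in every TAB sample the share was 12.4%. The second Vcan probe was found on no array, and its TAB and sham values overlapped. Averaged over the days, Vcan was up-regulated 3.16-fold by the brighter probe. Cd44, whose spot was not found in sham, was at least 4.25-fold higher against the lowest found spot, or at least 1.86-fold against the 1st percentile of the found spots. These were the 2 probes of the 9 genes that passed the test, where 7.47% of all kept probes were called higher and 6.73% lower. The split over all probes moved with the scaling, from 1492 higher and 1344 lower to 1747 and 884 after median scaling alone, while both calls held. Tnfaip6 had a mean ratio of similar size to Vcan (3.10-fold) and Has1 a smaller mean ratio (1.70-fold), and neither passed the threshold.

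**Figure D1:**
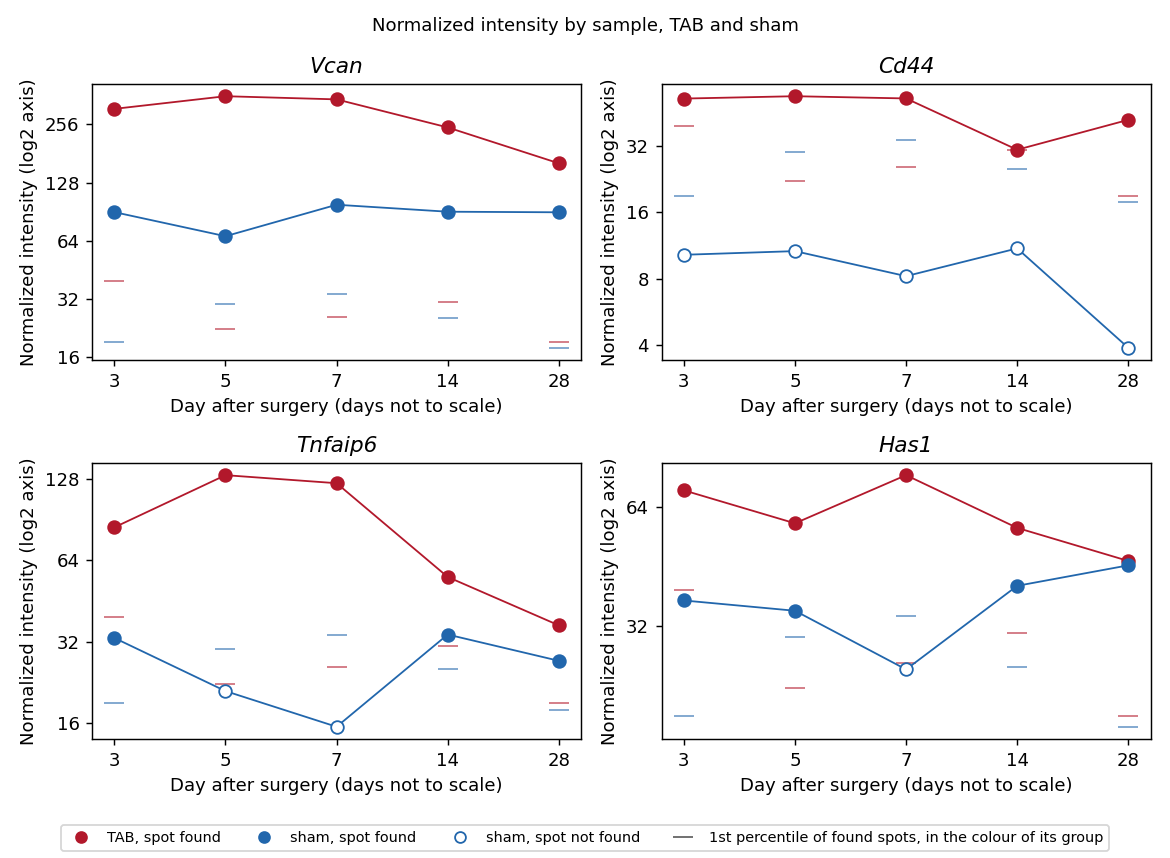
Normalized intensity (log2 axis) of Vcan, Cd44, Tnfaip6 and Has1 in each TAB (red) and sham (blue) sample against the day after surgery. Open circles are spots that were not found, and dashes mark the 1st percentile of the found spots of each array. In each panel the lowest TAB sample lies above the highest sham sample; on day 28 Has1 read 46.8 in TAB and 45.6 in sham.

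The promoters of these 4 genes are shown because a probe of each had TAB and sham values that did not overlap. They run from 250 bases before to 50 bases after the start site of the RefSeq annotation (mouse GRCm38.p6), 5′ to 3′ on the strand of the gene, and capitals mark a motif on either strand. The Vcan window lies at chr13:89742463-89742762 on the minus strand, Cd44 at chr2:102901616-102901915 on the minus strand, Tnfaip6 at chr2:52037863-52038162 on the plus strand and Has1 at chr17:17855139-17855438 on the minus strand.
Vcan: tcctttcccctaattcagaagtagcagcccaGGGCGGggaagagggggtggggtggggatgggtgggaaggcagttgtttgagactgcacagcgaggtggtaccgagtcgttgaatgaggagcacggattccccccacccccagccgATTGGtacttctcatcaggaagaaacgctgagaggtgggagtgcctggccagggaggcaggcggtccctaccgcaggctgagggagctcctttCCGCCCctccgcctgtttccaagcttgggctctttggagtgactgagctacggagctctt
Cd44: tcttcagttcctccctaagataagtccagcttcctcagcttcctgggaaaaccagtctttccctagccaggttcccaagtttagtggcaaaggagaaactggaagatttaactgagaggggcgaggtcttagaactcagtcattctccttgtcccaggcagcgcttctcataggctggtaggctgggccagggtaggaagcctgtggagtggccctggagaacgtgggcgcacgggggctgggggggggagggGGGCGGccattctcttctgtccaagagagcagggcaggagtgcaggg
Tnfaip6: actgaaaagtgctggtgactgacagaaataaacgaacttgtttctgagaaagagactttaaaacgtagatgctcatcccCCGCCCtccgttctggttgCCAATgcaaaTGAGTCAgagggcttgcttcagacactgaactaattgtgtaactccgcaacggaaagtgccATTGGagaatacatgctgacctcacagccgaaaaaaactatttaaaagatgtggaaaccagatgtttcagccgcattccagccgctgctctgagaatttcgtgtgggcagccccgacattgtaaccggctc
Has1: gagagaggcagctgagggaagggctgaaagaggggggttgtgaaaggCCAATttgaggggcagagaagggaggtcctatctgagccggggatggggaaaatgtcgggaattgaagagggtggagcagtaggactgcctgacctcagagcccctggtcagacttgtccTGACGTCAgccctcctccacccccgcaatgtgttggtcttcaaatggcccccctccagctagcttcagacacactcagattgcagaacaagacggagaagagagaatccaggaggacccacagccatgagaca

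These windows were searched on both strands for 6 motifs: the TATA box, with letters TATAAA, the box whose name CCAAT gives its letters, the GC box, with letters GGGCGG, the AP-1 motif, with letters TGANTCA, the CRE, with letters TGACGTCA, and the NF-kB motif, given here by its name. Of the 9 genes, 7 had a promoter entry. The Tnfaip6 window was the only 1 of the 7 with the AP-1 motif, which begins 142 bases before the start site and which 7.81% of all 32851 promoters hold. It also held 2 CCAAT boxes, 152 and 81 bases before the start site, and a GC box 171 bases before it. The Has1 window was the only 1 of the 7 with the CRE, 83 bases before the start site, a motif held by 1.79% of all promoters. The Vcan window held GC boxes 219 and 10 bases before the start site and a CCAAT box 103 bases before it, and the Cd44 window held a GC box just after the start site. A CCAAT box was present in 37.4% of all promoters and a GC box in 35.7%. The NF-kB motif, present in 4.51% of all promoters, was in none of the 4 windows, and no 2 different motifs overlapped in them. The GC content was 61% for Vcan, 58% for Cd44, 57% for Has1 and 47% for Tnfaip6, against a median of 52.7% over all promoters. A match describes letters only, and binding was not measured.

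Vcan encodes versican, a large chondroitin sulfate proteoglycan whose amino-terminal domain binds hyaluronan. The normalized intensity of its brighter probe (PH_mM_0000892) in the TAB samples, here and below in the order of days 3, 5, 7, 14, 28, was 308.5, 358.8, 345.5, 247.2 and 161.1. In the sham samples of the same days it was 89.9, 67.4, 98.2, 90.4 and 89.8. The sham values were close to each other, with day 5 below the rest, while the TAB values were highest on days 3 to 7 and lowest on day 28. The spot was found on all 10 arrays.

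The log2 ratio of TAB to sham for Vcan was 1.78, 2.41, 1.81, 1.45 and 0.84 on the 5 days. Every one of these was larger than the largest absolute log2 difference between any 2 of the 5 sham samples, which was 0.54. The mean log2 ratio was 1.66 (SE 0.23), with an adjusted p of 0.0183 from limma. The call was lost without the samples of day 3 (adjusted p 0.0758), day 5 (0.0643), day 7 (0.0807) or day 14 (0.0519), and the ratio stayed positive in each case.

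The second Vcan probe (PH_mM_0012492) was found on no array. Its normalized intensity was 1.58 to 8.35 in TAB and 1.65 to 5.61 in sham, and its mean log2 ratio of 0.30 (SE 0.52) had an adjusted p of 0.728 from limma. With the mean of both probes in place of each probe, the log2 ratio of Vcan was 0.98 and its adjusted p 0.0716 (limma). The deposited table does not pair the probes with transcripts, so whether they read different Vcan transcripts was not tested.

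Cd44 encodes the main cell-surface receptor for hyaluronan. The normalized intensity of its probe (PH_mM_0000681) in the TAB samples was 52.5, 53.8, 52.5, 30.8 and 42.0 on the 5 days. In the sham samples it was 10.3, 10.7, 8.22, 10.99 and 3.89. The spot was found on all 5 TAB arrays and on none of the 5 sham arrays, so the sham values are background readings and only a lower limit of the change can be given.

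The measured geometric means of Cd44 were 45.3 in TAB and 8.27 in sham. Against the lowest found spot of each sham array, or the probe's own reading where that was higher, Cd44 was at least 4.25-fold higher in TAB. The 1st percentile of the found spots is a stricter background level, and against it Cd44 was at least 1.86-fold higher. The limma fit on the readings as measured gave 2.46 on the log2 scale (adjusted p 0.0143, SE 0.27), which rests on sham readings at background and is no estimate of the fold. With dim values set to the lowest found spot the fit gave 2.09 (adjusted p 0.00635), and with dim values set to the 1st percentile 0.89 (adjusted p 0.0236). On day 14 the TAB value of 30.76 equalled that percentile of its own array. The call was lost without day 3 (adjusted p 0.0687), day 5 (0.0632) or day 7 (0.0703), each with the ratio still positive.

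Tnfaip6 encodes a secreted protein, induced in inflammation, that moves the heavy chains of inter-alpha-inhibitor onto hyaluronan. The normalized intensity of its probe (PH_mM_0015867) in TAB was 84.9, 132.6, 123.8, 55.6 and 36.8 on the 5 days. In sham it was 33.0, 20.98, 15.5, 34.0 and 27.2. The TAB value was highest on days 5 and 7 and, on day 28, lay just above the highest sham value. The sham spots of days 5 and 7, the days with the largest ratios, were not found.

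The log2 ratio of Tnfaip6 was 1.36, 2.66, 3.00, 0.71 and 0.44 over the 5 days. The ratios of days 3, 5 and 7 exceeded the largest absolute log2 difference between 2 sham samples (1.14), and those of days 14 and 28 did not. The mean log2 ratio of 1.63 (SE 0.42) had an adjusted p of 0.0526 from limma, just outside the threshold of 0.05. Over 17 alternative settings the adjusted p ran from 0.015 to 0.148, and it was under 0.05 in 9 of them.

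Has1 encodes a hyaluronan synthase that is known to be induced by inflammatory signals. The normalized intensity of its probe (mMC010922) in TAB was 70.6, 58.2, 77.1, 56.7 and 46.8 on the 5 days. In sham it was 37.1, 35.0, 24.9, 40.5 and 45.6, and the sham spot of day 7 was not found. The groups were separate on every day but lay close together on day 28.

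The log2 ratio of Has1 was 0.93, 0.74, 1.63, 0.49 and 0.04 over the 5 days. The largest absolute log2 difference between 2 sham samples was 0.88, and the ratios of days 3 and 7 exceeded it. The mean log2 ratio of 0.76 (SE 0.23) had an adjusted p of 0.0746 from limma, with 0.0201 to 0.178 over 17 alternative settings and 6 of them under 0.05.

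**Figure D2:**
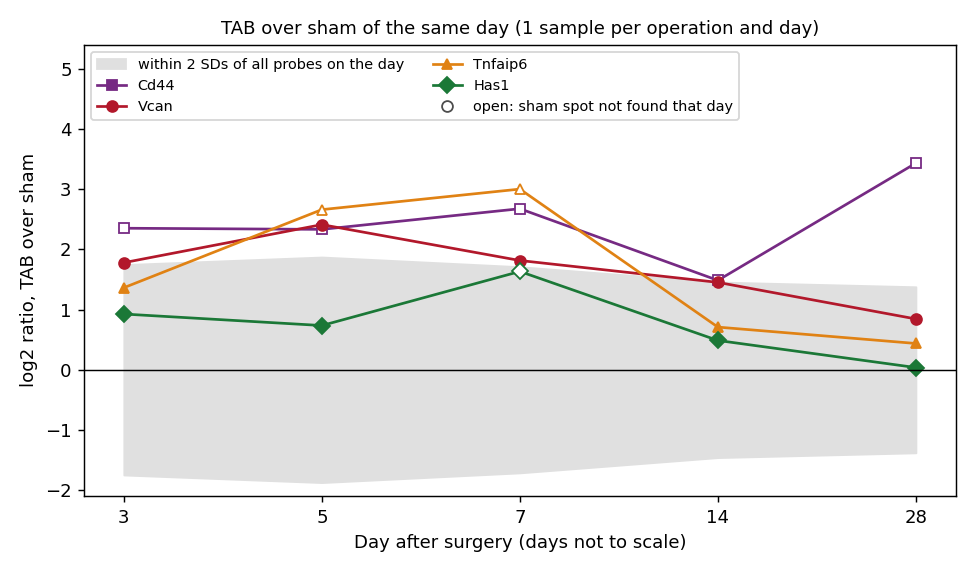
The log2 ratio of the TAB sample to the sham sample of the same day for 4 genes, against the day after surgery. The grey band spans 2 SDs of all kept probes on each day, and open symbols mark days on which the sham spot was not found. Cd44 lies above the band on all 5 days, Vcan and Tnfaip6 lie inside it on days 14 and 28, Tnfaip6 also on day 3, and Has1 lies inside it throughout.

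By the single-day rule of the study, a gene is called when its log2 ratio lies more than 2 SDs of all probes from 0, which here was 1.75, 1.87, 1.71, 1.46 and 1.38 on the 5 days. The share of all kept probes called higher was 3.07%, 3.77%, 3.71%, 3.29% and 3.36%. Vcan and Cd44 were above the threshold on day 3, Vcan, Cd44 and Tnfaip6 on days 5 and 7, and Cd44 on days 14 and 28. The second Vcan probe was also above it on day 7 with a log2 ratio of 2.34, although its spot was not found there. On day 14 Vcan lay just below the threshold. The 5 calls of Cd44 and those of Tnfaip6 compare found TAB spots with sham spots that were not found.

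The mean log2 ratio was larger on days 3 to 7 than on days 14 and 28 for Tnfaip6 (2.34 against 0.57), for Vcan (2.0 against 1.15) and for Has1 (1.10 against 0.26). For Cd44 the means were 2.45 and 2.46, but they rest on sham spots that were not found, and the late mean joins a ratio of 1.49 on day 14 with 3.43 on day 28. The early minus late difference of Cd44 was −0.98 without day 14 and 0.97 without day 28. None of these differences passed the test, with adjusted p of 0.438 for Tnfaip6, 0.473 for Vcan, 0.497 for Has1 and 0.998 for Cd44 from limma. The difference was 1.77 (SE 0.54) for Tnfaip6, 0.85 (SE 0.33) for Vcan, 0.84 (SE 0.35) for Has1 and −0.01 (SE 0.60) for Cd44. By this test 0% of the 19976 probes were called, while 2086 had an unadjusted p under 0.05. With trend and robust variance estimates, limma called 35 probes, and no probe of the 9 genes was among them.

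Has2, the synthase that is essential for the embryonic heart, was read by a probe (mMC001087) that was found on 1 array, the TAB array of day 7. Its raw intensity in TAB was 15, 25, 38, 3 and 9 on the 5 days. In sham it was −1, 4, 6, 5 and 8. All TAB readings but that of day 14 were above the highest sham reading, that of day 28 only just. With readings under 1 set to 1, which keeps all 26423 probes, the mean log2 ratio of Has2 was 1.76 (SE 0.75, adjusted p 0.221 from limma). The largest daily ratio was 4.39 on day 3, where the sham reading of −1 was set to 1.

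Acan encodes aggrecan, the main proteoglycan of cartilage, and its spot was found on no array. Its raw intensity was 9, 25, 9, 11 and 10 in TAB and 5, 9, −1, 5 and 10 in sham. The single high reading was the TAB sample of day 5, and the groups overlapped. With readings under 1 set to 1, its mean log2 ratio was 1.41 (SE 0.44, adjusted p 0.127 from limma). The largest daily ratio was 3.22 on day 7, where the sham reading of −1 was set to 1, against 1.13 on day 5.

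The spots of Has3, Ncan (neurocan, a lectican of the brain) and Hapln1 (the link protein that locks lecticans to hyaluronan) were found on no array. Their raw intensity was 0 to 10 in TAB and −2 to 7 in sham for Has3, −4 to 8 and 1 to 7 for Ncan, and 2 to 17 and 0 to 13 for Hapln1. With readings under 1 set to 1, the adjusted p from limma was 0.94 for Has3, 0.79 for Ncan and 0.382 for Hapln1. All these readings lay below the 1st percentile of the found spots, so at this sensitivity no change could be detected for them and none can be excluded.

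**Figure D3:**
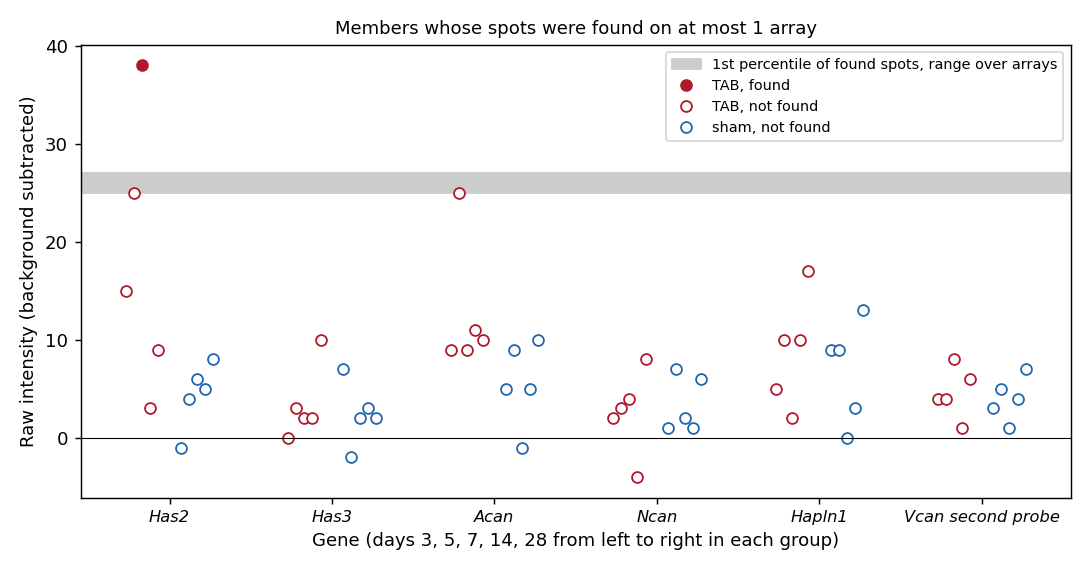
Raw, background-subtracted intensity of the probes found on at most 1 array, for TAB (red) and sham (blue), with the days in order from left to right in each group. The grey band is the 1st percentile of found spots over the arrays (25 to 27). The Has2 reading of 38 in TAB on day 7 is the single found spot.

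In the RefSeq gene order of mouse GRCm38.p6, the genes of the link proteins and lecticans lie in adjacent pairs with 0 protein-coding genes between them, Hapln1 beside Vcan, Hapln3 beside Acan, Hapln4 beside Ncan and Hapln2 beside Bcan. Within the pair on chromosome 13, the brighter Vcan spot was found on all 10 arrays, and the second Vcan spot and the Hapln1 spot on none. The other lecticans and link proteins (Bcan, Hapln2, Hapln3 and Hapln4) had 4 kept probes, of which none was called in either direction, with a median log2 ratio of −0.06. Over all kept probes 7.47% were called higher and 6.73% lower, so few calls would be looked for among 4 probes. Hapln2, known from myelinated nerve, was found on all 10 arrays and had a mean log2 ratio of −0.07 (SE 0.49). Its ratio was between −0.75 and −0.62 on days 3 to 14 and was 2.31 on day 28, when its sham sample read 36.8, and without day 28 it was called lower.

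The genes that supply hyaluronan precursors and break hyaluronan down had 11 kept probes, of which 3 were called higher in TAB, none was called lower, and the median log2 ratio was 0.38. Over all kept probes, 7.47% were called higher and 6.73% lower with a median of −0.05, which is the background for this list and for those below. Among them, Gusb, a lysosomal enzyme that removes terminal glucuronic acid, was 1.21 higher on the log2 scale (SE 0.26, limma adjusted p 0.0372). Hyal2, a hyaluronidase, had 0.50 (SE 0.12, adjusted p 0.0427). Of the genes on the supply side, Ugdh, which makes UDP-glucuronic acid, had 0.58 (SE 0.18, adjusted p 0.0757), and Ugp2, which makes UDP-glucose, had 0.17 (adjusted p 0.471).

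The other hyaluronan receptors and binding proteins had 16 kept probes, of which 5 were called higher and none lower, with a median log2 ratio of 0.55. Hmmr, a hyaluronan-binding protein that also acts at the mitotic spindle, was found in all 5 TAB samples and in no sham sample and was at least 8.29-fold higher in TAB (adjusted p 0.0143 from limma), or at least 3.29-fold against the 1st percentile of the found spots. Its TAB intensity ran from 40.2 to 182 and its sham readings from 6.09 to 10.6. Stab1, a scavenger receptor of macrophages and sinusoidal endothelium, had 1.17 on the log2 scale (SE 0.17, adjusted p 0.0199).

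Layn, a membrane protein that binds hyaluronan, was called by both of its probes, at least 3.74-fold higher by the probe not found in sham (at least 1.68-fold against the 1st percentile of the found spots) and with a log2 ratio of 0.70 by the other. Tlr2, an innate immune receptor, had a log2 ratio of 1.38 (SE 0.23, adjusted p 0.0241) with the spot found in 1 of 5 sham samples. Lyve1, the hyaluronan receptor of lymphatic endothelium and resident macrophages, had 0.15 (SE 0.32, adjusted p 0.783), and its TAB range (198.9 to 312.5) lay within its sham range (131 to 398.7). Habp4 (0.18, adjusted p 0.427) and Itih2 (0.01, adjusted p 0.986), a heavy chain of inter-alpha-inhibitor, were not called.

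The proteases that cut versican or aggrecan had 14 kept probes with their inhibitor Timp3, and 5 were called higher and none lower, with a median log2 ratio of 0.48. Adamts8 was found in all TAB and no sham samples by both of its probes, which put it at least 6.62-fold and at least 8.83-fold higher in TAB (adjusted p 0.0143 and 0.00548 from limma). Against the 1st percentile of the found spots these limits were 2.39-fold and 3.11-fold. Mmp2, a gelatinase, had a log2 ratio of 1.5 (SE 0.26, adjusted p 0.0264), largest on day 14 at 2.57. Mmp14, its membrane-bound activator, had 1.30 (SE 0.23, adjusted p 0.0265), and Adamts9, a versican-cleaving protease, had 0.62 (SE 0.15, adjusted p 0.0433). Adamts1, another versican-cleaving protease, had 0.32 (adjusted p 0.273), Timp3 had 0.35 (adjusted p 0.306) and Mmp3 had 0.92 (adjusted p 0.0902).

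The enzymes that build the chondroitin sulfate chains of versican had 18 kept probes, of which 4 were called higher and 1 lower, with a median log2 ratio of 0.39 (all kept probes 7.47% higher, 6.73% lower and −0.05). The chondroitin polymerizing factors Chpf and Chpf2 had log2 ratios of 0.99 (SE 0.23, adjusted p 0.0423 from limma) and 1.16 (SE 0.22, adjusted p 0.0285). The sulfotransferases Chst3 and Chst11 had 0.92 (adjusted p 0.0379) and 0.58 (adjusted p 0.0402). A further sulfotransferase, Chst13, was lower by 1 probe (−0.65, adjusted p 0.0457), and its other probe was not called (−0.30, adjusted p 0.502). The Chst13 call was lost after median scaling alone, after normalization within each operation and with the mean of all probes of a gene, among other settings. Chsy1, a chondroitin synthase, had 0.59 (adjusted p 0.0893), and B3gat3 (0.15, adjusted p 0.399) and Chst12 (−0.08, adjusted p 0.878) were not called.

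The partners and ligands of CD44 had 12 kept probes, of which 3 were called higher and 1 lower, with a median log2 ratio of 0.45. Spp1, which encodes osteopontin, a secreted ligand of CD44 and integrins, was 3.90 higher on the log2 scale (SE 0.58, limma adjusted p 0.021). It was 5.34 on day 3 and 1.87 on day 28. Msn, which links CD44 to actin, had 0.96 (SE 0.18, adjusted p 0.0299), and the growth factor Hbegf had 1.11 (SE 0.23, adjusted p 0.0331). Cd74, a chain of antigen presentation that signals with CD44, was called lower by 1 of its 3 probes (−0.65, adjusted p 0.0212), and the other probes had 0.60 and 0.59 and were not called. Srgn (0.18), Ank3 (−0.16) and the Rdx probes (−0.03 and −0.19) were not called.

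Across these 6 lists 22 probes were called. Without the samples of day 3, 5, 7 or 14 that count was 1, 1, 2 and 4, and Adamts8 was among the called genes each time. Without day 28 it was 21. Over all kept probes the count of 2836 fell to 13, 35, 23 and 184 without day 3, 5, 7 or 14.

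**Figure D4:**
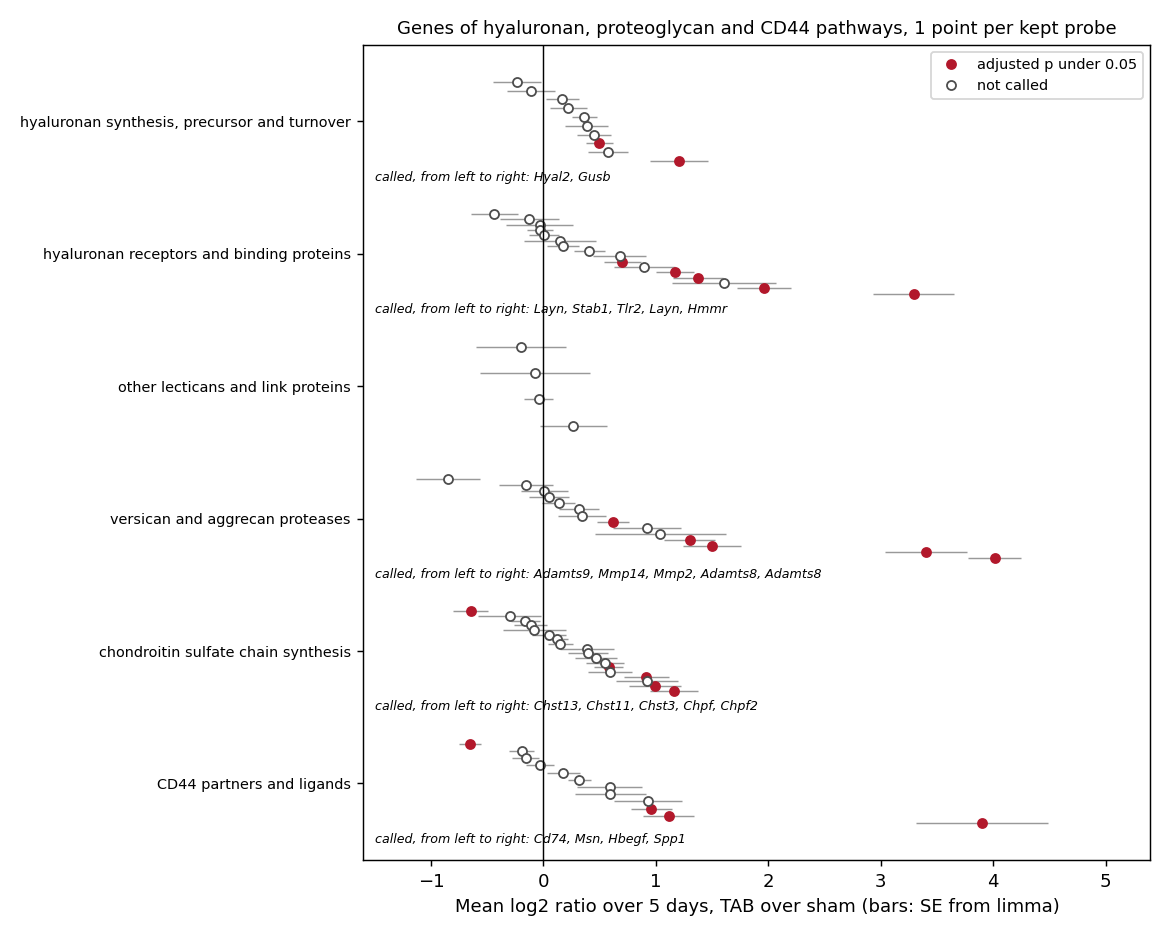
Mean log2 ratio of TAB to sham over the 5 days with its SE (limma), with 1 point for each kept probe of 6 gene lists, of which 1 probe is not drawn. Filled points had an adjusted p under 0.05. Called probes lie to the right of 0 except those of Chst13 and Cd74, and Hmmr, Adamts8 and Spp1 lie farthest right. The points of probes not found in sham, among them Hmmr and Adamts8, rest on background sham readings and are no estimates of the fold.

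The cell types whose markers moved along with these genes were also read from the arrays. RNA of more cells of a type and more RNA per cell cannot be told apart in tissue RNA. Cardiomyocyte markers were high in every sample, and none of their 8 probes was called, with a summed intensity of 249000 to 259000 in TAB and 257000 to 289000 in sham. In this sum Myl2 read 65500 in every TAB sample, the ceiling of the scanner, and without it the sum was 183000 to 194000 in TAB and 191000 to 223000 in sham. Of 5 monocyte and macrophage probes, 4 were called higher, with sums of 2380 to 5110 in TAB and 1430 to 1670 in sham. Cd68, a macrophage marker, had a log2 ratio of 2.01 (adjusted p 0.0266 from limma).

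Of 6 kept fibroblast probes, 3 were called higher (sums of 51000 to 67000 against 45200 to 49900). Most of these sums came from the 2 Dcn probes, which were not called (log2 ratios 0.26 and 0.19). The probes of Col1a1, Pdgfra and Pdgfrb were removed, and that of Pdgfra was found in 2 sham samples and no TAB sample. Of 3 kept myofibroblast probes 2 were called higher (7460 to 17900 against 1460 to 1700), and most of that sum came from Postn. Postn, a marker of activated fibroblasts, had a log2 ratio of 3.37 (adjusted p 0.00548). The other called probe, that of Tagln, was found in no sham sample. Acta2 was not called (0.53, adjusted p 0.295 from limma), and its ratio was −0.24 on day 14 and −0.52 on day 28. Of 4 kept chondrocyte probes, 2 were called higher (sums of the kept probes 285 to 717 against 187 to 228). These were Sox9, a transcription factor of cartilage formation, at least 6.38-fold higher (at least 3.34-fold against the 1st percentile of the found spots, limma adjusted p 0.0143), and Comp, a cartilage matrix protein, with a log2 ratio of 1.18 (adjusted p 0.0435). The probe of Col9a1, a cartilage collagen, was found on no array and was removed, and that of Col2a1 was not called (log2 ratio 0.54, adjusted p 0.277). No endothelial (8 probes), atrial (3 probes) or smooth muscle and pericyte (3 probes) marker was called. The atrial markers summed to 2560 to 4760 in TAB and 4390 to 9970 in sham, and day 14 stood apart, with log2 ratios of −2.24 for Myl7, −2.76 for Sln and −1.56 for Myl4. All 5 TAB values of Myl7 lay below its sham values, as did those of 7.59% of all kept probes, and Myl7 was not called (adjusted p 0.121 from limma). Of 4 neutrophil probes 1 was called higher, that of S100a8, whose spot was found on no array. Of 5 kept T and B cell probes 2 were higher and 1 lower, and their sums overlapped (668 to 851 in TAB, 650 to 893 in sham). The higher ones were that of Ptprc (log2 ratio 1.255) and that of Cd3d, found in 2 TAB samples and no sham sample. Cd3e, found in all samples, was the lower one (−0.59, adjusted p 0.0364 from limma). Cd79a, also found in all samples, had −0.49 and was not called. Of 7 neuron and glia probes 1 was higher, not found in sham, and 1 was lower, not found in TAB. The part of these cell types in the values of Vcan, Cd44, Tnfaip6 and Has1 was not tested.

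The genes whose 5 daily log2 ratios were nearest to those of Vcan, among 12554 named probes found in all TAB samples, were Olfml3, Batf and Fxyd5. The root mean square difference over the 5 days was 0.076, 0.10 and 0.16 on the log2 scale. Olfml3 had ratios of 1.85, 2.40, 1.87, 1.39 and 0.98 over the 5 days, close to Vcan on each day. The genes nearest to Cd44 were Kcnj15, Dfna5 and Dio2, at 0.57, 0.58 and 0.59, thus farther away, and the Cd44 ratios rest on sham spots that were not found. The same holds for Kcnj15 and Dfna5, found in no sham sample. It holds in part for Dio2 and for Batf, each found in 2 sham samples.

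**Figure D5:**
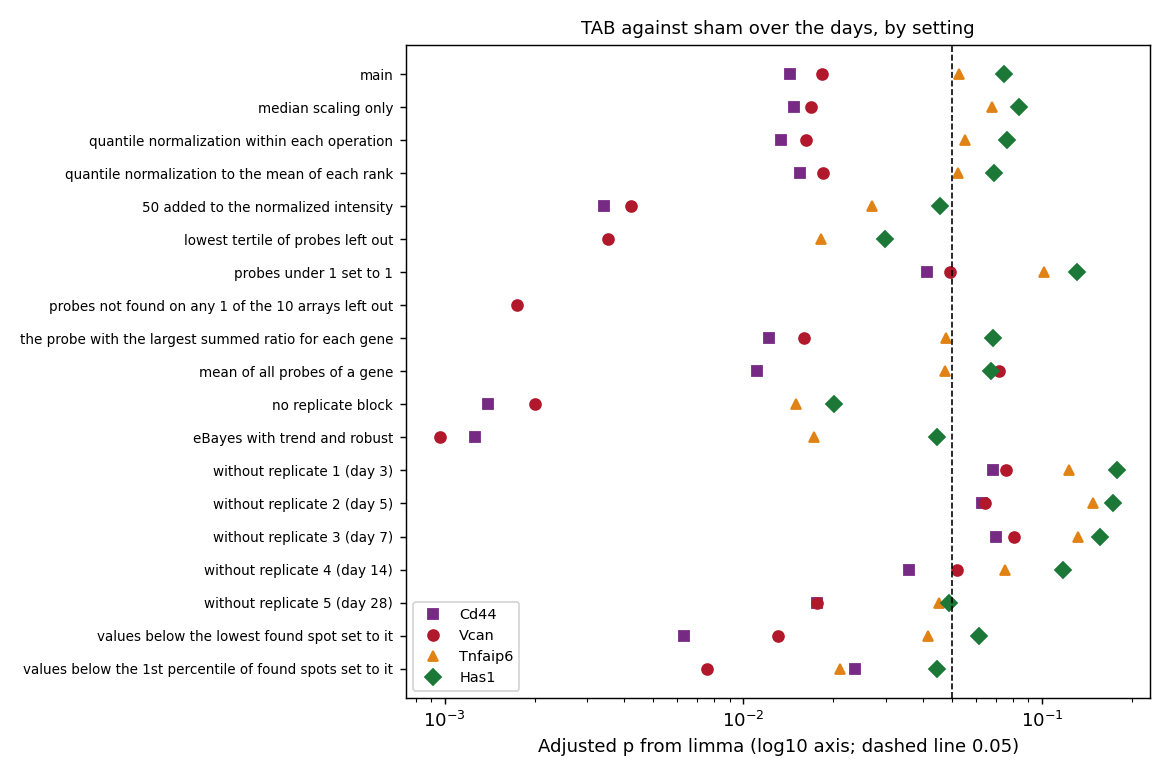
Adjusted p (log10 axis) of the mean TAB over sham ratio from limma for 4 genes under each processing setting, with the threshold of 0.05 as a dashed line. Vcan and Cd44 lie left of the line in most settings and cross it when the samples of day 3, 5 or 7 are left out (Vcan also without day 14 or with the mean of its probes), and Tnfaip6 and Has1 lie on both sides of it.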

How the data were processed

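Left-ventricular RNA of 5 TAB and 5 sham samples was labelled with Cy5 and hybridized to Mouse Whole Genome OneArray slides. The authors deposited raw intensity per probe, scanned in 1 colour and read with GenePix, with a background subtracted by a method not given in the sources used here and with arrays unscaled. A detection p-value of unstated computation was deposited beside it, as was a flag whose negative value was read as a spot not found. The p-value decided no call. Of the 26423 probes, 3633 carry no gene symbol.

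The median of every array was first set to 47. After removal of 6447 probes that fell under 1 somewhere, quantile normalization over the 10 samples used rank medians, and values were log2 transformed. The study kept the probe with the largest ratios for a gene; here every probe was kept, since that rule chooses by outcome. TAB and sham were compared with limma 3.58.1 (lmFit and eBayes) in R 4.3.3, blocked by day, with the Benjamini-Hochberg method over all 19976 probes and a threshold of 0.05. The difference between days 3 to 7 and days 14 and 28 was tested on the daily ratios. The fits were tested on simulated data. Pairing by day came from the labels. Across probes, the deviation of a TAB sample from the TAB mean and that of the sham sample of the day from the sham mean had r = 0.11, 0.0015, 0.047, 0.016 and 0.016 on the 5 days.

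A spot not found on any array of a group has only a bound there, taken from the lowest found spot of each array. The number of arrays limits the precision. The genes named are the 9 genes, genes of the pathway lists with a called probe and the 3 brightest others of each list. Markers of the cell types and the 3 nearest patterns of each called gene are named as well. The genes and the lists, taken from textbook knowledge, were chosen with earlier results of these data known. Alternatives covered the normalization, the filter on dim probes, an added 50, the choice of probe, the model and each day left out. Those that set dim values to a background level were chosen after seeing the data. The figures were drawn with matplotlib 3.10.9 in Python 3.11.15. Promoters and gene order came from RefSeq. A gene of these lists is not reported here. The miRNA arrays were not analysed here.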

Additional observations from a re-analysis of the deposited data

Results flagged for a closer look

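Samples far from the rest of their group were looked for in 10 groups, those of TAB and sham for each of the 5 kept probes, and chance alone gives such a sample in about 1 of 20 groups. The sham sample of day 5 lay below the other sham samples for Vcan, at 67.4 against 89.8 to 98.2, a gap of 0.76 of the range of the group on the log2 scale. This sham sample is the denominator of the largest daily Vcan ratio, 2.41. The sham sample of day 28 lay below the others for Cd44, at 3.89 against 8.22 to 10.99, a gap of 0.721 of the range. It is the denominator of the largest daily Cd44 ratio, 3.43, and all 5 of these sham spots were not found.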

How the results depend on the processing

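The direction of Vcan, Cd44, Tnfaip6 and Has1 was positive in every alternative in which each was tested. Vcan kept its call in 13 of 18 alternatives and Cd44 in 13 of 16. The exceptions were the days left out and, for Vcan, the mean of both probes. With 50 added, the log2 ratio was 0.71 for Cd44, 0.79 for Tnfaip6, 0.37 for Has1 and 1.25 for Vcan, and that of Cd44 was 0.89 with dim values set to the 1st percentile of found spots, which also gives the limit of 1.86-fold. The second Vcan probe, found on no array, turned to −0.21 without day 7 and was not called there. It turned to −0.56 with dim values set to the lowest found spot and was called lower in that setting (adjusted p 0.0366 from limma).

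Of the 5 kept probes of the 9 genes, 2 were called higher. This count was 4 with 50 added, 4 with trend and robust on, and 4 with dim values set to the 1st percentile of found spots. It was 3 with dim values set to the lowest found spot, where the second Vcan probe was called lower. It was 1 with probes found on all 10 arrays only (of the 9 genes Vcan alone was then tested). With a day left out it was 0 to 4 (0 without day 3, 5 or 7, 1 without day 14 and 4 without day 28). Without the day as replicate block, 4 of these probes, 2 probes of the stage test and 3875 probes in all were called. The count over all probes, 2836, was 4890 with 50 added, 4365 with the lowest tertile left out, 371 with probes under 1 set to 1, 4377 with probes found on all 10 arrays only, 4726 with trend and robust on, and 13 to 2773 with a day left out (23 without day 7 and 184 without day 14). Calls split into 1492 higher and 1344 lower, into 1747 and 884 after median scaling alone, and into 1856 and 979 after normalization within each operation.

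The stage test, with 0 calls, gave 9 with 50 added, 3 without the lowest tertile, 9 with probes found on all 10 arrays only, and 35 with trend and robust on, and 0 with any day left out. None of these calls was a probe of the 9 genes. Among the 9 genes, probes without overlap numbered 4, or 3 without the lowest tertile, 3 with the mean of all probes of a gene, 3 with dim values at the 1st percentile of found spots, 1 where Vcan alone was tested, and 4 in each other alternative run. Single-day calls numbered 11, all higher, among them that of the second Vcan probe on day 7. At an absolute log2 ratio of at least 1 they numbered 16, in both directions. These included ratios of 1.115, 2.34 and −1.27 on days 3, 7 and 14 for the second Vcan probe, found on no array. The share of all probes at that ratio was not taken. The calls numbered 13 after median scaling alone, 13 with probes under 1 set to 1 and 12 after normalization within each operation. They numbered 12 with dim values at the lowest found spot. With the probe of the largest summed ratio or the mean of all probes of a gene they numbered 9 and 8. They numbered 7 with 50 added, 7 without the lowest tertile and 4 where Vcan alone was tested. With dim values at the 1st percentile of found spots they numbered 7, and 7 to 10 with a day left out. The 22 pathway calls became 4 with probes under 1 set to 1 and 1 to 21 with a day left out. They rose to 31 with trend and robust on, 28 with 50 added, 27 without the replicate block and 24 without the lowest tertile. The causes were not tested, except that fewer samples or probes entered where days or probes were left out.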
